A study of Mus musculus with 8 samples.

Results

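Pde9a, Hs3st6, Glo1, Rps2, Wtap, Atp6v0c and Rnps1 are 7 genes of mouse chromosome 17, taken by symbol from the 46517 genes of a table of TPM, a level that is corrected for transcript length and adds up to an equal sum per library. They were selected on their TPM in these same libraries, because they, or pseudogenes derived from them, separated both single-knockout groups from the double-knockout and wild-type groups. That contrast is therefore described below for these genes and their pseudogenes, with no test. All 7 passed the filter of at least 1 TPM in at least 2 libraries that left 15434 tested genes, 729 of them on chromosome 17.

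The libraries came from hair follicle stem cells of back skin, taken from male mice of 70 days in the second telogen and sorted as negative for DAPI and Sca-1 and positive for integrin alpha 6 and CD34. NFIB-cKO mice (animals 81 and 85) carried Sox9-CreER, NFIBfl/fl and R26-YFPfl/fl. NFIX-cKO mice (animals 32 and 88) carried Sox9-CreER, NFIBfl/+, NFIXfl/fl and R26-YFPfl/fl, so that 1 of their Nfib alleles was floxed as well. NFIB/X-dKO mice (animals 33 and 36) carried Sox9-CreER, NFIBfl/fl, NFIXfl/fl and R26-YFPfl/fl. WT mice (animals 34 and 82) carried NFIBfl/fl, NFIXfl/fl and R26-YFPfl/fl without Cre, and are described as littermates of the double-knockout line. Sorting also required YFP in the knockouts but not in WT, and deletion was limited to cells that express the Sox9-driven Cre. The labels name these alleles and no inbred background. The double-floxed line (NFIB/X-dKO and WT) and the lines of the single knockouts therefore coincide with the split that chose the genes, and a difference between breeding lines and a difference set by genotype cannot be told apart in this design.

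NFIB and NFIX belong to the nuclear factor I family of transcription factors, which bind DNA as dimers and are expressed in the quiescent stem cells of the hair follicle bulge. A processed pseudogene is a copy of a spliced mRNA inserted elsewhere in the genome. Such a copy usually lacks introns and differs from its parent gene by a few bases, and a read that covers none of those bases can belong to either. Inbred mouse strains differ both in sequence and in gene copy number. The Glo1 region is a known example, since some strains carry a duplication of it and others do not.

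Gene tables with expected counts were used for animals 85, 32, 88, 33 and 36 and summed to between 57173266 and 66854625 reads, and the depth of the other 3 libraries was unknown. The stem cell marker Cd34 lay between 811 and 1144 TPM and Krt15 between 7507 and 14487 TPM over all 8 libraries. Itga6 lay between 124 and 218 TPM, Sox9 between 75.7 and 199 TPM and Nfatc1 between 70.6 and 183 TPM. Other bulge markers differed by group, namely Lhx2 (104 to 314 TPM), Lgr5 (38.6 to 129 TPM) and Krt24 (26.7 to 460 TPM). Each was lowest in NFIB/X-dKO and highest in WT. Ly6a, the gene of Sca-1, lay between 6.46 and 36.95 TPM. The leukocyte gene Ptprc reached at most 0.61 TPM, whereas the differentiation keratin Krt10 lay between 296 and 1596 TPM and the dermal gene Col1a1 between 8.27 and 77.3 TPM. Nfib stood at 293 and 233 TPM in NFIB-cKO, 377 and 389 TPM in NFIB/X-dKO and 230 and 209 TPM in WT. Nfix stood at 138 and 123 TPM in NFIX-cKO, 125 and 148 TPM in NFIB/X-dKO and 158 and 157 TPM in WT. Gene-level TPM includes reads from exons outside a floxed part, so these levels do not check the deletions. The proliferation gene Top2a, chosen after its values were seen, split the libraries as the 7 genes were chosen to, at 25.4 to 77.6 TPM in the single knockouts and 8.60 to 23.2 TPM in NFIB/X-dKO and WT. Mki67, another proliferation gene, did not split them, with 6.29 TPM in NFIX-cKO 88 and 6.32 TPM in NFIB/X-dKO 36. The part of proliferation in the values below was not tested. In bulk libraries, fewer cells of a type and less RNA per cell cannot be told apart.

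For 5 of the 7 genes, a pseudogene on another chromosome was matched that carried the split more sharply than the gene itself. A match needed at least 90% identity over at least 50% of the pseudogene transcript. The lines below pair 75 coding bases of each parent with the same stretch of its pseudogene, from GENCODE M21 transcripts on GRCm38. They are shown because so few bases separate the copies, and capitals mark the bases that differ within the stretch. Each stretch was picked as the 75 aligned coding bases with the most differences, so it is not typical of the whole alignment.
Rps2 coding bases 51 to 125: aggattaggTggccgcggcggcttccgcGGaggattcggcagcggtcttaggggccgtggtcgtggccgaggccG
Gm6311, chr13:75954186-75954260 (plus strand): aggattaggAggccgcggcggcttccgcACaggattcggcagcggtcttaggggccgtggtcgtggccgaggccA
Rps2 coding bases 255 to 329: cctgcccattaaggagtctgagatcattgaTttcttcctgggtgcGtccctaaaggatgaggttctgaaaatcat
Rps2-ps6, chr14:76237241-76237315 (minus strand): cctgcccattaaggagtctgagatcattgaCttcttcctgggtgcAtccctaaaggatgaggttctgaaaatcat
Glo1 coding bases 4 to 78: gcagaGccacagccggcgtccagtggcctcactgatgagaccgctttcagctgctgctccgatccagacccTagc
Gm13443, chr2:35340412-35340486 (plus strand): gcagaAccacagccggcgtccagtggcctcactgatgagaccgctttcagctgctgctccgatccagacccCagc
Rnps1 coding bases 534 to 608: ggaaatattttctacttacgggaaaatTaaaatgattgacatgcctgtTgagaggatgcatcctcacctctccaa
Gm9825, chr6:7982848-7982922 (minus strand): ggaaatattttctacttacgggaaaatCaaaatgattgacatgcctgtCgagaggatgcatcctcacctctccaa
Wtap coding bases 223 to 297: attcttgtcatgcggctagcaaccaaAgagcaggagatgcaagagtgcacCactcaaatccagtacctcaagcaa
Gm14292, chr2:179177647-179177721 (plus strand): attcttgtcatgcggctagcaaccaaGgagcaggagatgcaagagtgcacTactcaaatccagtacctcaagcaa
Atp6v0c coding bases 73 to 147: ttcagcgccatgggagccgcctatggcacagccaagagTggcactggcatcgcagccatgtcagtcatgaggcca
Gm15487, chr6:37806158-37806232 (plus strand): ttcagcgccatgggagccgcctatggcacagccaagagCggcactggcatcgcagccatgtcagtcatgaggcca

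The Rps2 stretch beside Gm6311 holds 4 differing bases, that beside Rps2-ps6 holds 2, and the Glo1, Rnps1 and Wtap stretches hold 2 each. Atp6v0c and Gm15487, listed in GENCODE as Atp6v0c-ps2, differ at the 1 base shown over all 465 aligned bases. Over whole alignments, Gm13443 had 3 mismatches with Glo1 in 555 bases, Gm14292 had 3 with Wtap in 456 bases, Gm9825 had 5 with Rnps1 in 843 bases, and Gm6311 had 9 with Rps2 in 879 bases. Levels of these parents and pseudogenes are therefore uncertain at the level of reads, since the deposited estimates divide shared reads between near-identical copies.

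Pde9a showed the widest split among the 7 genes themselves and had no pseudogene. It encodes a phosphodiesterase that degrades cyclic GMP, and it lies at 31386210 to 31476310 on chromosome 17 of GRCm38. Pde9a stood at 0.11 and 0.27 TPM in NFIB-cKO, 0.18 and 0.07 TPM in NFIX-cKO, 4.81 and 6.27 TPM in NFIB/X-dKO and 4.14 and 4.06 TPM in WT. No single-knockout library came near any of the other 4, and the single knockouts averaged 0.158 TPM, against 4.82 TPM in NFIB/X-dKO and WT, which is 30.6 times as much. The expected counts behind these levels were 6 reads in NFIB-cKO 85 and 7 and 4 reads in NFIX-cKO, against 290 and 361 reads in NFIB/X-dKO. On the log2(TPM + 1) scale, single knockouts minus NFIB/X-dKO and WT was -2.32 ± 0.15 (SE, 4 libraries against 4), and that scale understates the ratio of so low a gene.

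Comparisons that the choice did not use are those within each side of the split, namely NFIB/X-dKO against WT, which share the double-floxed alleles, and NFIB-cKO against NFIX-cKO. Differences there are from limma on log2(TPM + 1) over all 15434 genes, with Benjamini-Hochberg adjustment and 2 libraries a group. For Pde9a, NFIB/X-dKO minus WT was 0.35 ± 0.22 (SE, 95% interval -0.17 to 0.87, adjusted p = 0.438), and NFIB-cKO minus NFIX-cKO was 0.08 ± 0.22 (interval -0.44 to 0.60, adjusted p = 0.933). Pde9a passed the filter on low values through NFIB/X-dKO and WT, so its near-zero levels in the single knockouts left little room for a difference between NFIB-cKO and NFIX-cKO on this scale.

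Of 20 tested genes outside the 7 that start within 1 Mb of Pde9a, 18 had sides that overlapped, among them its nearest neighbours Slc37a1 and Wdr4. Glo1, itself among the 7, starts within that distance as well, and its sides lay apart by a gap of 0.008. The 2 of these 20 that lay apart were Glp1r and, by a gap of 0.01027, the noncoding gene 1700097N02Rik. Glp1r, the receptor of glucagon-like peptide 1, had low levels. It stood at 0.24 and 0.10 TPM in NFIB-cKO, 0.14 and 0.05 TPM in NFIX-cKO, 1.72 and 1.65 TPM in NFIB/X-dKO and 1.51 and 1.21 TPM in WT. Prss41, a serine protease gene, also lay under 0.34 TPM in every single-knockout library, at 0.33 and 0.07 TPM in NFIB-cKO and 0.23 and 0.33 TPM in NFIX-cKO. Its levels were 1.56 and 1.51 TPM in NFIB/X-dKO and 2.15 and 2.09 TPM in WT. These were the widest gaps between the sides among chromosome 17 genes other than the 7.

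Hs3st6, an enzyme that adds 3-O-sulfate groups to heparan sulfate, was graded rather than on or off. It lies at 24752988 to 24758684 on chromosome 17, 0.0349 Mb from Rps2. Hs3st6 stood at 54.3 and 44.9 TPM in NFIB-cKO, 44.6 and 40.6 TPM in NFIX-cKO, 30.5 and 31.3 TPM in NFIB/X-dKO and 16.9 and 18.4 TPM in WT. All 4 single-knockout libraries lay above all 4 others, and both NFIB/X-dKO libraries lay above both WT libraries. Both NFIB-cKO libraries also lay above both NFIX-cKO libraries, but only just, at 44.87 TPM in NFIB-cKO 85 against 44.61 TPM in NFIX-cKO 32. Hs3st6 was the 1 gene of the 7 that passed a test within a side. It was higher in NFIB/X-dKO than in WT by 0.77 ± 0.15 on the log2(TPM + 1) scale (SE, interval 0.43 to 1.12, limma adjusted p = 0.0430), where 2.88% of all tested genes passed. The call ended with no filter, with scaling, with only these groups and within the 30s series of animal numbers, and when any library of NFIB-cKO, NFIB/X-dKO or WT was left out, although the difference stayed between 0.60 and 0.83. The median gene differed by 0.16 in that comparison, and by 0.00258 after median-of-ratios scaling, under which the Hs3st6 difference was 0.60 (adjusted p = 0.101). NFIB-cKO minus NFIX-cKO was 0.21 ± 0.15 (interval -0.13 to 0.55, adjusted p = 0.629). Of the markers of other cells, Col1a1 moved with Hs3st6 between NFIB/X-dKO, at 53.3 and 65.1 TPM, and WT, at 12.2 and 16.7 TPM (1.97, limma adjusted p = 0.0219). Col1a1 stood at 77.3 and 55.1 TPM in NFIB-cKO and 14.6 and 8.27 TPM in NFIX-cKO. Pecam1, Mlana and Krt10 did not pass in NFIB/X-dKO against WT, and Ptprc was too low to be tested. The part of these cells in the Hs3st6 difference was not tested.

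**Figure D1:**
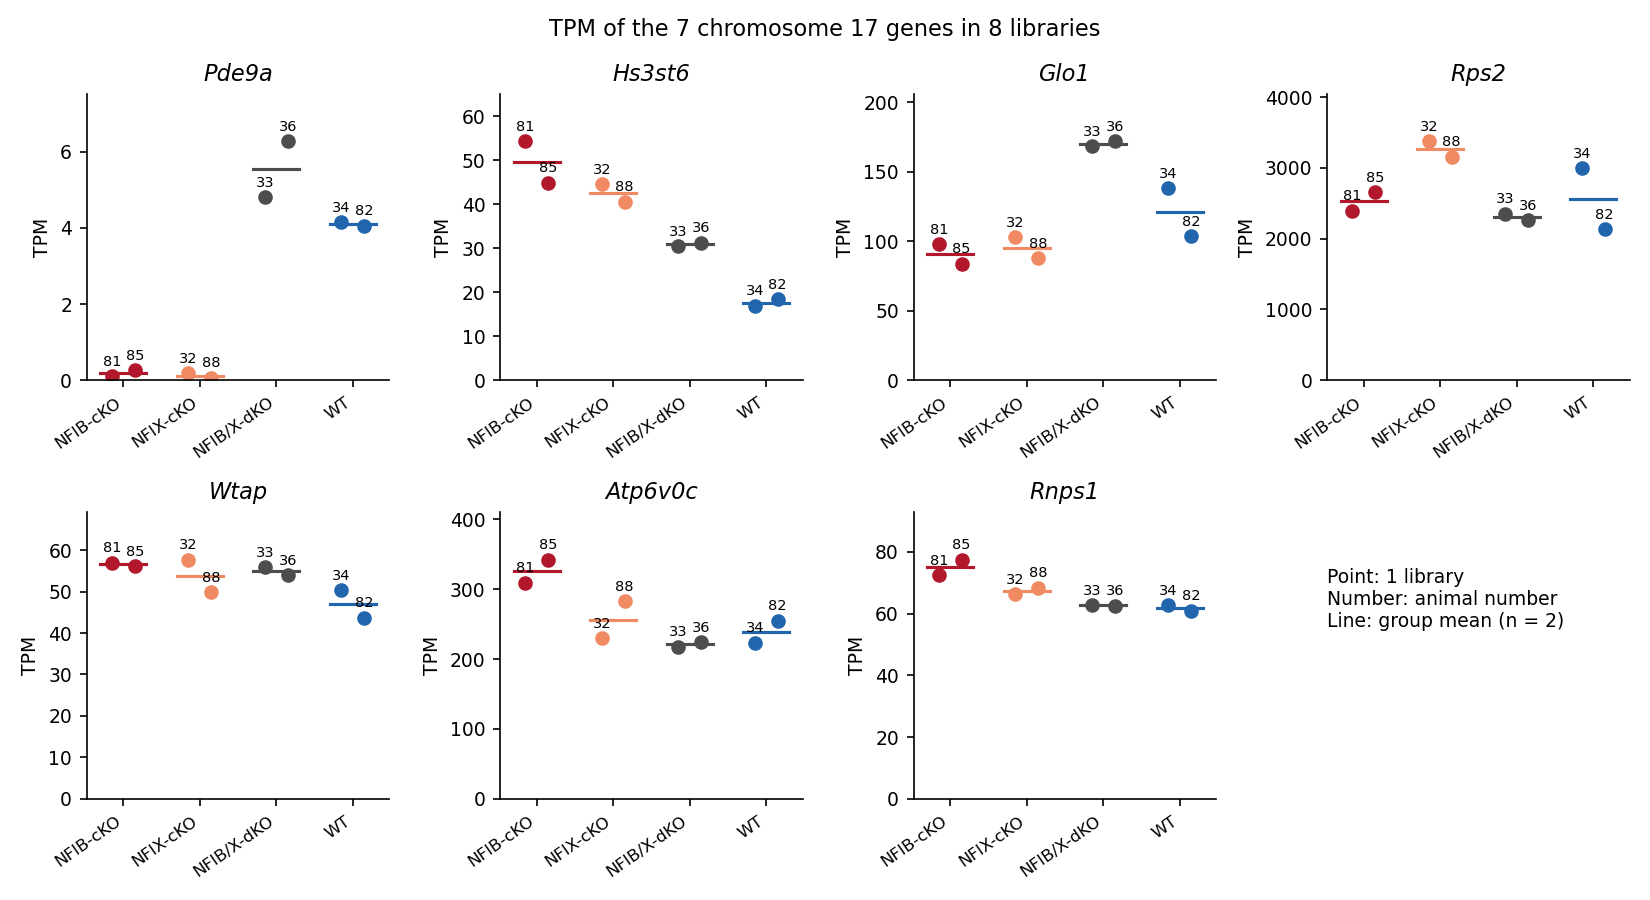
TPM of the 7 genes in each library, with groups along the x axis, points for libraries labelled by animal number and lines for group means (n = 2). Pde9a is near 0 in the 4 single-knockout libraries and at 4.06 TPM or more in the other 4, Hs3st6 is graded across groups, and the sides of Rps2, Wtap and Atp6v0c overlap.

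Glo1 encodes glyoxalase 1, which detoxifies methylglyoxal with glutathione, and it lies at 30584936 to 30626871 on chromosome 17. Glo1 stood at 97.9 and 83.9 TPM in NFIB-cKO, 103 and 87.7 TPM in NFIX-cKO, 168 and 172 TPM in NFIB/X-dKO and 138 and 104 TPM in WT. The sides did not overlap, but only just, since WT 82 (103.59 TPM) lay next to NFIX-cKO 32 (103.01 TPM). Its pseudogene Gm13443 on chromosome 2 was on or off. Gm13443 was listed at 0 in both NFIB-cKO libraries and stood at 0.23 and 0.24 TPM in NFIX-cKO, 32.7 and 30.5 TPM in NFIB/X-dKO and 24.7 and 16.99 TPM in WT. Within sides, Glo1 differed by 0.50 ± 0.17 in NFIB/X-dKO minus WT (interval 0.10 to 0.91, limma adjusted p = 0.210) and by -0.07 ± 0.17 in NFIB-cKO minus NFIX-cKO (adjusted p = 0.926). The unadjusted interval of the NFIB/X-dKO difference lay above 0, and the comparison missed the threshold after adjustment.

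The genes that lie in the duplication known from some strains were read beside Glo1. Btbd9 stood at 5.61 and 6.02 TPM in NFIB-cKO, 5.67 and 4.68 TPM in NFIX-cKO, 8.80 and 8.98 TPM in NFIB/X-dKO and 7.87 and 5.79 TPM in WT, where WT 82 lay below NFIB-cKO 85. Dnah8, an axonemal dynein gene that overlaps the start of Glo1, did not reach the filter. It had 0.43 and 0.52 TPM in NFIB-cKO, 0.33 and 0.28 TPM in NFIX-cKO, 0.98 and 1.09 TPM in NFIB/X-dKO and 0.39 and 0.32 TPM in WT. Dnah8 was thus highest in NFIB/X-dKO, with WT at the level of the single knockouts, whereas Glp1r and Gm13443 were high in WT too. Of Glo1, Btbd9 and Glp1r, the tested genes of the region, 0 passed in either comparison within a side.

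Rps2 encodes a protein of the small ribosomal subunit and lies at 24718116 to 24721929 on chromosome 17. Rps2 stood at 2397 and 2655 TPM in NFIB-cKO, 3375 and 3156 TPM in NFIX-cKO, 2352 and 2257 TPM in NFIB/X-dKO and 2997 and 2131 TPM in WT. The sides overlapped, with WT 34 above both NFIB-cKO libraries. Snora64, Snora78 and Snhg9, noncoding genes listed inside Rps2, were at most at 6.25 TPM. Of 57 pseudogenes matched to Rps2, 9 passed the filter and 4 of these lay apart between the sides, all lower in the single knockouts.

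Gm6311 on chromosome 13 was the most abundant of these pseudogenes. It stood at 0.90 and 1.18 TPM in NFIB-cKO, 0.94 TPM and listed at 0 in NFIX-cKO, 645 and 618 TPM in NFIB/X-dKO and 640 and 443 TPM in WT. Rps2-ps6 on chromosome 14 stood at 1.24 TPM and listed at 0 in NFIB-cKO, listed at 0 and 0.26 TPM in NFIX-cKO, 62.2 and 36.8 TPM in NFIB/X-dKO and 13.6 and 69.96 TPM in WT. Its levels spread widely within NFIB/X-dKO and WT, yet no single-knockout library reached 1.25 TPM. Rps2-ps10, on chromosome 18, was low but not absent in the single knockouts, with 17.5 and 29.9 TPM in NFIB-cKO, 60.2 and 27.7 TPM in NFIX-cKO, 256 and 231 TPM in NFIB/X-dKO and 343 and 215 TPM in WT. Gm37009, a shorter match, stood at 2.87 and 1.88 TPM in NFIB-cKO, 3.0 and 3.4 TPM in NFIX-cKO, 10.9 and 7.96 TPM in NFIB/X-dKO and 15.2 and 6.50 TPM in WT. The sides of the other 5 tested pseudogenes, Gm17971, Gm15846, Gm5786, Gm11249 and Gm16073, overlapped.

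Wtap encodes a regulatory subunit of the complex that writes N6-methyladenosine on mRNA, and it lies at 12966796 to 12994169 on chromosome 17. Wtap stood at 56.9 and 56.2 TPM in NFIB-cKO, 57.7 and 49.9 TPM in NFIX-cKO, 55.8 and 54.0 TPM in NFIB/X-dKO and 50.3 and 43.7 TPM in WT, with overlap between the sides. Its pseudogene Gm14292 on chromosome 2 was listed at 0 in both NFIB-cKO libraries and stood at 0.65 and 0.41 TPM in NFIX-cKO, 12.6 and 14.4 TPM in NFIB/X-dKO and 14.5 and 12.98 TPM in WT. The deposited mean transcript length of Wtap was 1754 bases in NFIB-cKO 85, 1870 and 1812 bases in NFIX-cKO, and 2091 and 2070 bases in NFIB/X-dKO. The single knockouts thus also had the shorter estimated mean length, while the lengths in NFIB-cKO 81 and in WT were not used here. This was not particular to Wtap. Glo1, Rps2, Atp6v0c and Rnps1 were likewise shorter in these single-knockout libraries than in NFIB/X-dKO, as for Glo1 at 1639 to 1734 bases against 1790 and 1818 bases. The part of the division of reads with pseudogenes in these lengths was not tested.

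Atp6v0c encodes the proteolipid subunit of the membrane ring of the vacuolar proton pump, and it lies at 24163866 to 24169702. Atp6v0c stood at 309 and 342 TPM in NFIB-cKO, 230 and 283 TPM in NFIX-cKO, 218 and 224 TPM in NFIB/X-dKO and 223 and 255 TPM in WT, where NFIX-cKO 32 fell inside the range of the other side. Gm15487 on chromosome 6 stood at 1.14 and 2.27 TPM in NFIB-cKO, 0.78 TPM and listed at 0 in NFIX-cKO, 85.1 and 92.2 TPM in NFIB/X-dKO and 91.7 and 97.8 TPM in WT. Rnps1 encodes an activator of splicing that associates with the exon junction complex, and it lies at 24414565 to 24425901. Rnps1 stood at 72.5 and 77.5 TPM in NFIB-cKO, 66.4 and 68.4 TPM in NFIX-cKO, 62.7 and 62.6 TPM in NFIB/X-dKO and 62.7 and 61.0 TPM in WT. All single-knockout libraries of Rnps1 lay above the others, by a gap of 0.08 on the log2(TPM + 1) scale. Gm9825 on chromosome 6 stood at 0.06 and 0.16 TPM in NFIB-cKO, was listed at 0 in both NFIX-cKO libraries, and stood at 17.7 and 18.6 TPM in NFIB/X-dKO and 17.95 and 15.03 TPM in WT.

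The pseudogenes' share of the summed TPM of gene and pseudogenes was narrow on each side of the split. In the Rps2 family it was 1.72% to 2.45% over the 4 single-knockout libraries and 26.1% to 29.9% over the 4 others. The Atp6v0c family had 0% to 0.659% in the single knockouts and 27.7% to 29.1% in the others. For Rnps1 the shares were 0% to 0.206% in the single knockouts and 19.8% to 22.9% in the others, and for Wtap 0% to 1.11% in the single knockouts and 18.4% to 22.9% in the others. For Glo1 they were 0% to 0.273% in the single knockouts and 14.1% to 16.3% in the others. No library of either side had a share inside the range of the other.

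Adding the TPM of the pseudogenes to that of the gene turned the sign of the difference between the sides for 4 of the 5 families. TPM is corrected for length, so a shared read adds more to the sum when it is assigned to a shorter pseudogene. Gm15487 had 465 bases, against a mean of 1182 bases for Atp6v0c in NFIB-cKO 85. Whether sums of reads turned in the same way was not tested. For the gene alone, single knockouts minus NFIB/X-dKO and WT was 0.25 for Rps2, 0.12 for Wtap, 0.33 for Atp6v0c and 0.19 for Rnps1 on the log2(TPM + 1) scale. For the sum it was -0.19 for Rps2, -0.21 for Wtap, -0.15 for Atp6v0c and -0.16 for Rnps1, and the sides of all 4 sums overlapped. The Rnps1 split was present in the gene's own TPM and not in the sum of TPM. Gm9825 had 843 bases, against a mean of 1701 bases for Rnps1 in NFIB-cKO 85, so the limit of length holds for that sum too. Glo1 went the other way. Its difference was -0.62 alone and -0.85 as a sum, and the sides of the sum stayed apart, at 83.9 to 103 TPM in the single knockouts and 121 to 202 TPM in NFIB/X-dKO and WT.

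**Figure D2:**
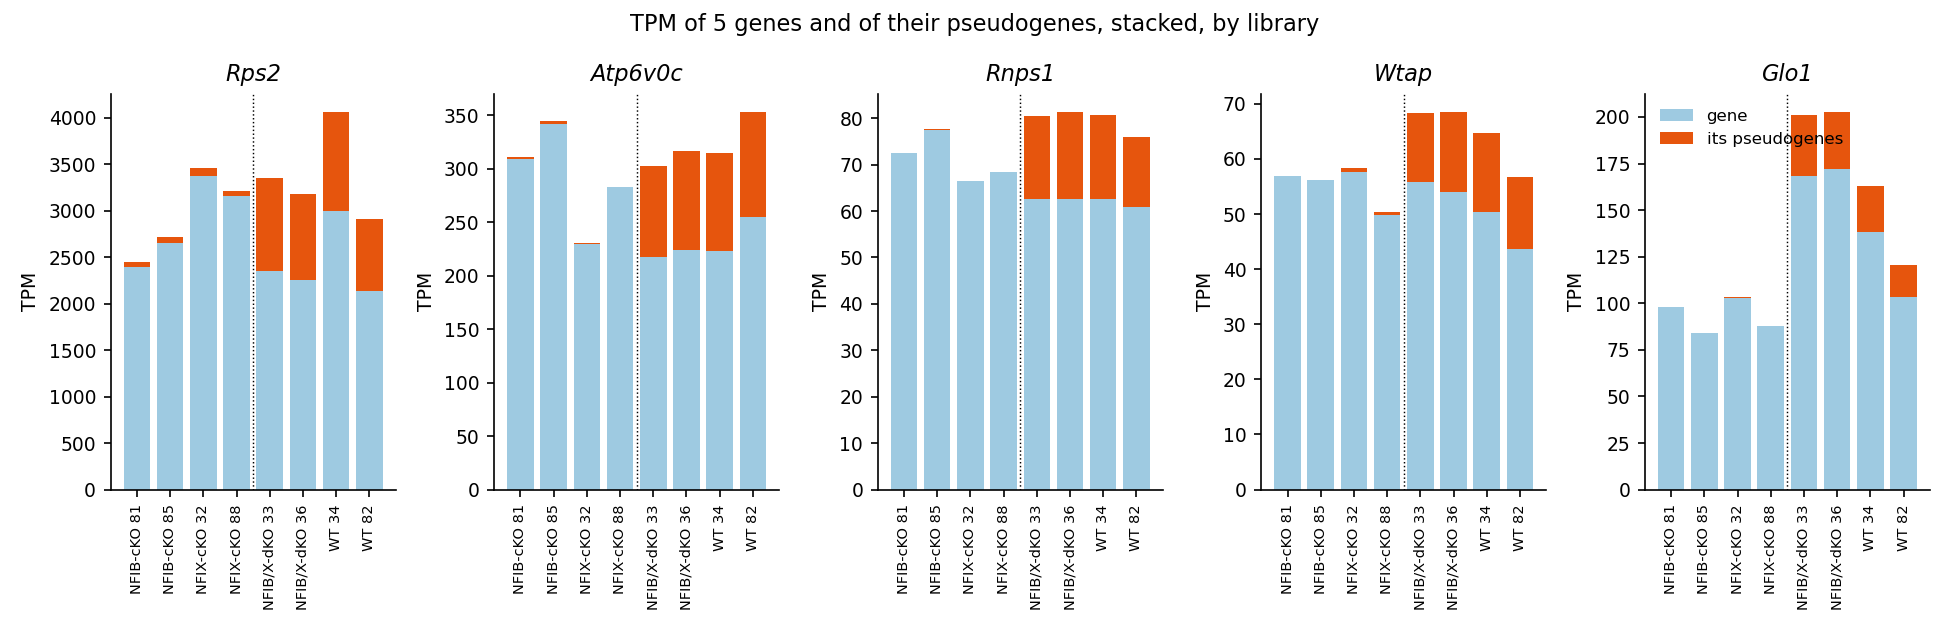
TPM of 5 genes (blue) with the TPM of their pseudogenes stacked above (orange), by library on the x axis, with a dotted line between the single knockouts on the left and NFIB/X-dKO and WT on the right. The pseudogene part makes 14.1% to 29.9% of the bars on the right and at most 2.45% of those on the left, while the full heights overlap between the sides except for Glo1.

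Within the sides, Rps2, Wtap, Atp6v0c and Rnps1 passed no test. For Rps2, NFIB/X-dKO minus WT was -0.13 ± 0.18 (SE, limma adjusted p = 0.686) and NFIB-cKO minus NFIX-cKO was -0.37 ± 0.18 (interval -0.79 to 0.05, adjusted p = 0.466). For Atp6v0c, NFIB/X-dKO minus WT was -0.11 ± 0.14 (adjusted p = 0.680) and NFIB-cKO minus NFIX-cKO was 0.35 ± 0.14 (interval 0.01 to 0.69, adjusted p = 0.409). Wtap differed by 0.22 ± 0.13 (adjusted p = 0.422) in NFIB/X-dKO minus WT and by 0.07 ± 0.13 (adjusted p = 0.887) in NFIB-cKO minus NFIX-cKO. Rnps1 differed by 0.02 ± 0.11 (adjusted p = 0.933) in NFIB/X-dKO minus WT and by 0.15 ± 0.11 (adjusted p = 0.649) in NFIB-cKO minus NFIX-cKO. Of the 7 genes, 0 passed in NFIB-cKO against NFIX-cKO, where 0.123% of all tested genes passed (19 by limma, and 1839 at an unadjusted p under 0.05). EdgeR on expected counts called 0 of the 7 there, with NFIB-cKO 85 as the lone NFIB-cKO library, assumed to vary like the libraries of the other groups. At an unadjusted p under 0.05, limma had 1 of the 7, Atp6v0c.

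Of the 8 pseudogenes that lay apart, limma called 0 in NFIB/X-dKO against WT, where 1 (Gm13443) had an unadjusted p under 0.05. For Gm6311, NFIB/X-dKO minus WT was 0.24 (interval -0.51 to 0.99, limma adjusted p = 0.681), beside a difference of -8.43 between the sides. Gm13443 had the difference nearest to the threshold in that comparison, at 0.60 (interval 0.09 to 1.11, adjusted p = 0.232). Gm13443, Gm9825 and Gm14292 lay under 1 TPM in every single-knockout library, and Gm6311 and Rps2-ps6 reached 1 TPM in only 1 each. All of these passed the filter through NFIB/X-dKO and WT, so the absence of a call between NFIB-cKO and NFIX-cKO says nothing of them. Values there are given as a description. Gm15487 differed by 0.99 (interval 0.26 to 1.72, limma adjusted p = 0.349). Gm14292 differed by -0.61, with levels near 0 in both groups, and its test is not read. Rps2-ps6 had the widest interval of the 8 for NFIB/X-dKO minus WT, at -1.12 to 2.33.

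**Figure D3:**
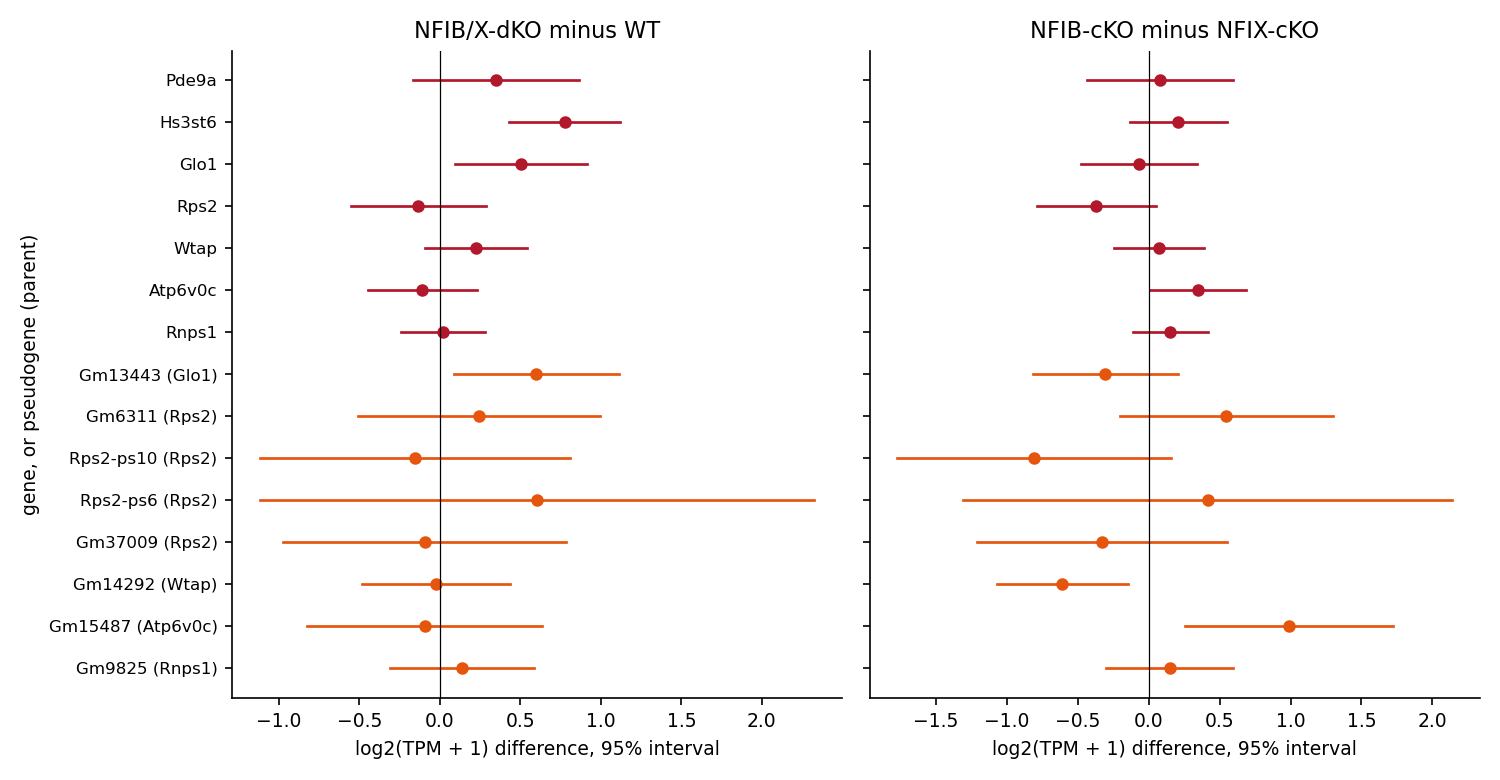
Differences on the log2(TPM + 1) scale with 95% intervals (x axes) for the 7 genes (red) and the 8 pseudogenes that lay apart (orange, parent in brackets), for NFIB/X-dKO minus WT on the left and NFIB-cKO minus NFIX-cKO on the right. Of the genes, Hs3st6 in NFIB/X-dKO minus WT has the interval farthest above 0, at 0.43 to 1.12.

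Animal numbers fell into a 30s and an 80s series, which the labels do not explain. The 80s held 3 of the 4 single-knockout libraries and 1 of the 4 others. The split was present in both series for Pde9a, at 0.18 TPM in NFIX-cKO 32 against 4.14 to 6.27 TPM in the NFIB/X-dKO and WT libraries of the 30s, and at 0.07 to 0.27 TPM in the single knockouts against 4.06 TPM in WT 82 of the 80s. With the series as a term, the difference between the sides was -2.28 for Pde9a and 0.95 for Hs3st6. Gm6311 stood at 0.94 TPM in NFIX-cKO 32 of the 30s and at 443 TPM in WT 82 of the 80s.

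Among all tested genes, 3.05% had the 4 single-knockout libraries entirely above (1.28%) or below (1.77%) the 4 others, and among the 7 this held for Pde9a, Hs3st6, Glo1 and Rnps1, a count set by the choice. A limma call between the sides was made for 0.117% of tested genes (0.0518% higher and 0.0648% lower), 18 in number, and is not read for the 7 genes or their pseudogenes. Of 722 tested chromosome 17 genes other than the 7, 31 (4.29%, exact 95% binomial interval 2.94% to 6.04%) lay apart, against 431 of 14632 (2.95%) on all other chromosomes. The share was not particular to chromosome 17. Chromosome M had 8.11% of 37 genes, and chromosomes 19, 6 and 1 had 4.08%, 3.74% and 3.53%, inside the interval of chromosome 17. With WT 82 left out, the share rose on chromosome 17 and elsewhere, and chromosome 17 fell below the rest, at 20.2% against 21.8%. The NFIB/X-dKO and WT libraries then held only animals numbered in the 30s, so these shares are not comparable with those of all 8 libraries. The order of chromosome 17 and the rest thus varied with the libraries used. Genes on a chromosome are not independent, and the interval covers counting error only.

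Along the chromosome, 4 of 50 genes before Wtap (8.00%), 13 of 229 from Wtap to Pde9a (5.68%) and 14 of 443 beyond Pde9a (3.16%) lay apart. The stretch from Wtap to Pde9a spans 18.5 Mb. Within 20 Mb beyond Pde9a the share was 4.03% (11 of 273 genes), and farther on it was 1.76% (3 of 170 genes). In NFIB/X-dKO against WT, limma called 2.88% of all tested genes. It called 0 of these 50 and 0 of these 229 genes, and 9 of the 443 beyond Pde9a. At an unadjusted p under 0.05 it had 8 before Wtap, 23 from Wtap to Pde9a and 68 beyond, in a comparison where 16.8% of all tested genes (2596 of 15434) had one.

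**Figure D4:**
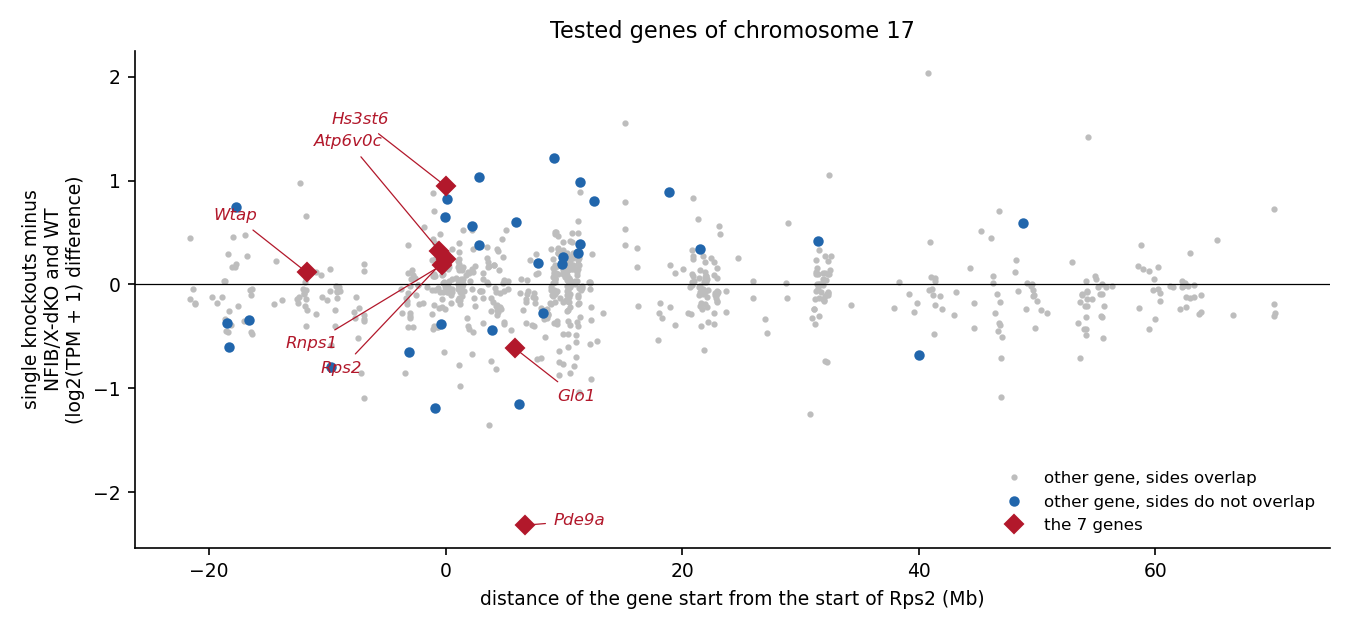
Single knockouts minus NFIB/X-dKO and WT on the log2(TPM + 1) scale (y axis) for tested chromosome 17 genes by distance of their start from that of Rps2 in Mb (x axis), with the 7 genes as red diamonds, other genes whose sides do not overlap in blue and the rest in grey. Pde9a, at -2.32, is the lowest point, and blue points are sparse at the right, where 3 of the 170 genes more than 20 Mb beyond Pde9a lay apart.

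Of the 15 other chromosome 17 genes with the widest gaps, 7 were lower and 8 higher in the single knockouts. Ermard, a gene linked to the endoplasmic reticulum membrane, stood at 23.2 and 20.8 TPM in NFIB-cKO, 22.2 and 16.4 TPM in NFIX-cKO, 39.6 and 33.8 TPM in NFIB/X-dKO and 39.1 and 32.8 TPM in WT. Tagap1 was higher in the single knockouts, at 14.96 and 18.3 TPM in NFIB-cKO and 16.8 and 14.99 TPM in NFIX-cKO, against 11.2 and 9.03 TPM in NFIB/X-dKO and 8.89 and 8.04 TPM in WT. The remaining genes of the 15 with the widest gaps were Hmga1, Kifc1, Igfals, Slc9a3r2, 3110052M02Rik, Pla2g7, Tmem181b-ps, C920025E04Rik, Rnaset2a, Galnt14 and Slc26a8. Hmga1, a gene of a chromatin architectural protein, stood at 148 and 216 TPM in NFIB-cKO, 121 and 168 TPM in NFIX-cKO, 86.0 and 87.8 TPM in NFIB/X-dKO and 52.8 and 90.6 TPM in WT. None of the 15 passed a limma test within a side. They were ranked by the gap between the sides, so a test of that contrast is not read for them.

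Pseudogenes elsewhere in the table were compared by where their parent gene lies. Of 499 tested pseudogenes with a matched parent, 13 had a parent among the 7 genes, and 8 of these (61.5%) lay apart, all lower in the single knockouts. Another 23 had a different parent on chromosome 17, of which 3 (13.04%) lay apart, and 463 had a parent on other chromosomes, of which 12 (2.59%) did. The first share follows from the choice of the genes. A gap of at least 1 on the log2(TPM + 1) scale was found for 7 pseudogenes of the 7 genes, for 0 with another chromosome 17 parent and for 1, Gm18367 of Hmgb3, with a parent elsewhere.

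The 3 pseudogenes with another chromosome 17 parent had narrower gaps. Gm5819, which differs from Unkl by 1 base in 288, stood at 0.26 TPM and listed at 0 in NFIB-cKO, 0.68 and 0.22 TPM in NFIX-cKO, 1.80 and 1.67 TPM in NFIB/X-dKO and 1.79 and 1.47 TPM in WT, while the sides of Unkl overlapped. Tmem181b-ps of Tmem181a was lower in the single knockouts with a gap of -0.17, and C920025E04Rik of H2-T23 was higher with a gap of 0.17.

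The families of the 7 genes were read for a shared movement within the sides. In NFIB/X-dKO against WT, 1.62% of all tested genes rose and 1.26% fell by limma. Of 8 tested cyclic nucleotide phosphodiesterases, 1 rose in that comparison, Pde4d, which degrades cyclic AMP (1.44, limma adjusted p = 0.0312), and 0 fell. Pde4d stood at 3.86 and 4.12 TPM in NFIB/X-dKO and at 0.52 and 1.23 TPM in WT, a difference that Pde9a did not share. Of 2 tested heparan sulfate 3-O-sulfotransferases, Hs3st6 passed, as described above. Among 22 tested V-ATPase subunits, 1 fell, Atp6v1b1, a subunit of the catalytic sector, which stood at 1.37 and 2.23 TPM in NFIB/X-dKO and 11.2 and 11.9 TPM in WT (-2.18, adjusted p = 0.0234). Atp6v1b1 was also at 5.77 and 13 TPM in NFIB-cKO and 20.4 and 20.2 TPM in NFIX-cKO.

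None of 32 tested small ribosomal subunit proteins passed in either comparison by limma, nor did any of 7 genes of glyoxalase and methylglyoxal handling, 7 of the N6-methyladenosine writer complex, 13 of the exon junction complex and its partners, or 14 class I histocompatibility genes of chromosome 17. At an unadjusted p under 0.05, 21 of the 32 ribosomal proteins differed between NFIB-cKO and NFIX-cKO and 0 between NFIB/X-dKO and WT. Their median difference in NFIB-cKO minus NFIX-cKO was -0.32, beside -0.37 for Rps2 itself and 0.06 for all tested genes. Among the class I genes, an unadjusted p under 0.05 was found for 6 of 14 between NFIB/X-dKO and WT and for 5 between NFIB-cKO and NFIX-cKO, beside 16.8% and 11.9% of all tested genes in these 2 comparisons. Over all genes, 445 passed in NFIB/X-dKO against WT (1.62% higher and 1.26% lower) and 19 in NFIB-cKO against NFIX-cKO (0.0583% higher and 0.0648% lower). After median-of-ratios scaling, the calls were 205 higher and 244 lower in NFIB/X-dKO against WT, beside 7 higher and 14 lower in NFIB-cKO against NFIX-cKO. The median difference between the sides was 0.07 for the ribosomal subunit proteins without Rps2 and -0.08 for the V-ATPase subunits without Atp6v0c, beside -0.09 for all tested genes. Of the 31 other ribosomal proteins and the 21 other V-ATPase subunits, 0 lay apart between the sides. In the class I list 2 of 14 lay apart, H2-T22 and H2-M3, both higher in the single knockouts. Among all tested genes 3.05% lay apart, so counts this small in short lists are not read as a result about the lists.

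Promoters were searched for the nuclear factor I motif in the RefSeq table for GRCm38.p6, from 250 bases before to 50 bases after each start, on both strands. The table held 8 promoters of Wtap, Atp6v0c, Rps2 and Glo1, and those of Pde9a, Hs3st6 and Rnps1 were not used here. The full nuclear factor I palindrome was found in 0 of the 8 and in 12 of all 32851 promoters (0.0365%). Its repeat unit TTGGC, which the palindrome contains on both strands, was found in 6 of the 8 and in 46.7% of all promoters. A match is a description of letters, and no match says nothing of binding outside this window.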

How the data were processed

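RNA of sorted hair follicle stem cells was sequenced as paired ends from TruSeq mRNA libraries, per the labels' protocols; the HiSeq model of each library is not named. The authors deposited 1 table of TPM for all 8 libraries and gene tables of TPM, expected counts and mean transcript lengths for 5 of them. Reads were aligned with Bowtie2 2.2.9 and quantified with RSEM 1.2.30 on mm10 (GRCm38), per the submitters' processing notes. RSEM divides reads that fit several transcripts by estimation, so parents and near-identical pseudogenes are uncertain. The annotation release and strandedness are not given in the sources used here, so overlapping genes are uncertain too. All columns were matched to libraries by title.

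Limma 3.58.1 (R 4.3.3) was run on log2(TPM + 1) over all 8 libraries with a variance trend, for genes with at least 1 TPM in at least 2 libraries, with an adjusted p threshold of 0.05. EdgeR 4.0.16 was run on the expected counts deposited by the authors, rounded to whole numbers, for NFIB-cKO against NFIX-cKO (19675 genes), with 1 NFIB-cKO library. TPM keeps no depth, so no counting interval was given for NFIB-cKO 81, WT 34 and WT 82. Steps were tested on simulated data. Coordinates and gene types were taken from GENCODE M21, and pseudogene transcripts were matched to protein-coding transcripts with blastn 2.17.0. Animal numbers were taken as separate animals. If they were not, p-values measure technical spread.

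Named were the 7 genes, their pseudogenes, the 15 other chromosome 17 genes and 10 genes elsewhere with the widest gap between the sides, and up to 3 members of each family list past a test. Members, lists and rules were chosen with earlier results of these data known. Alternatives were a pseudocount of 0.1, no filter, a mean of at least 5 TPM, median-of-ratios scaling, the animal series as a term, only the groups compared, only 1 series, edgeR, and each library left out. The results of 2 genes are not reported here.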

Additional observations from a re-analysis of the deposited data

Results flagged for a closer look

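The genes below passed the limma contrast of both single knockouts against NFIB/X-dKO and WT (differences on the log2(TPM + 1) scale, adjusted p under 0.05). It has the form of an interaction term of the 2 deletions but cannot be read as one. It coincides with the breeding lines, and WT lacked Cre and was not sorted on YFP. The 7 genes and their pseudogenes are left out, since that contrast chose them.

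Gm18367, a pseudogene of Hmgb3 on chromosome 14, had the on-off form, with a difference of -1.47. It stood at 0.25 TPM and listed at 0 in NFIB-cKO, 0.02 and 0.14 TPM in NFIX-cKO, 1.68 and 1.97 TPM in NFIB/X-dKO and 2.18 and 2.41 TPM in WT. Cyp2g1, a cytochrome P450 gene of chromosome 7, differed by 2.13, with 10.1 and 13.4 TPM in NFIB-cKO, 17.9 and 19.9 TPM in NFIX-cKO, 1.19 and 1.92 TPM in NFIB/X-dKO and 6.19 and 2.78 TPM in WT.

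In the others 1 group carried the contrast. Esr1, the estrogen receptor gene, differed by 2.44, but it stood at 12.6 and 19.9 TPM in NFIB/X-dKO, inside the 15.1 to 32.4 TPM of the single knockouts in part, and at 0.47 and 0.33 TPM in WT. Esr1 was thus high in every library that carried Sox9-CreER and near 0 in WT, which had no Cre. Whether its reads came from the CreER transgene or from the Esr1 gene was not tested. Gm10719 differed by -1.80 and was high in NFIB/X-dKO alone, at 24.7 and 13.7 TPM. Gm10157 differed by 1.28 and was high in NFIX-cKO alone, at 4.85 and 5.23 TPM.

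Gm25731, a microRNA gene of chromosome 17 that starts at 65509368, differed by 2.03 and was high in NFIB-cKO alone, at 18.0 and 14.6 TPM. Mir7655 differed by 1.53, Mir7059 by 1.45 and Mir7072 by 1.26, and all 3 were listed at 0 outside NFIB-cKO. Their expected counts in NFIB-cKO 85 were only 3, 3 and 2 reads, so these calls rest on levels at the floor. These microRNA genes are short precursors in a poly(A) library, and their levels were not checked otherwise.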

How the results depend on the processing

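No paired analysis was possible because every library carries its own animal number and no number is shared between groups. The direction of the difference between the sides held for all 7 genes under every alternative that gave a value, although Pde9a was -4.30 with a pseudocount of 0.1. That pseudocount leaves the ranking of libraries as it is, so gaps were not recounted under it.

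Calls in NFIB/X-dKO against WT numbered 445, and 270 with no filter, 192 with only the groups compared, 98 within the 30s series and 38 to 580 with a library left out (213 when animal 81 was dropped, 212 for 85, 44 for 33, 38 for 36 and 193 for 82). Among the 7 genes the single call became 0 with no filter, scaling, only the groups compared and within the 30s, and 0 to 1 with a library left out. Calls in NFIB-cKO against NFIX-cKO numbered 19, and 9 with only these groups, 0 within the 80s and 3 to 34 with a library left out (12 for 81, 3 for 85, 34 for 88, 12 for 33, 12 for 36, 29 for 34 and 31 for 82). Calls between the sides numbered 18, and 9 with a pseudocount of 0.1, 61 with no filter and 6 to 16 with a library left out (7 for 81, 9 for 85, 6 for 33, 7 for 36 and 9 for 34). Scaling split the calls in NFIB/X-dKO against WT into 205 higher and 244 lower, against 250 and 195, and those in NFIB-cKO against NFIX-cKO into 7 and 14, against 9 and 10.

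The share of genes apart on chromosome 17 was 6.53% with scaling and 4.85% to 20.2% with a library left out. On other chromosomes it was 2.37% with no filter, 2.63% with a mean of at least 5 TPM, 4.202% with scaling and 3.59% to 21.8% with a library left out. Leaving out NFIX-cKO 32 gave 15.1% and 11.9%.

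Signs turned only for differences that had not passed. In NFIB/X-dKO minus WT these were Rnps1 (-0.16 with scaling, -0.00068 within the 30s, -0.00068 to 0.0390 with a library left out), Atp6v0c (0.0123 with the series as a term) and Rps2 (-0.38 to 0.11 with a library left out). In NFIB-cKO minus NFIX-cKO these were Glo1 (0.0931 with the series as a term, 0.0472 within the 80s, -0.18 to 0.0472 with a library left out), Pde9a (-0.0176 to 0.18) and Wtap (-0.0278 to 0.18). The cause was not tested.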

Other observations

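The 10 genes with the widest gap between the sides outside chromosome 17 held 7 pseudogenes of Rps2, Glo1, Wtap, Atp6v0c and Rnps1. The other 3 were Gm18367 and a pair of microRNA genes. Mir6935 on chromosome 11 stood at 2.88 and 2.00 TPM in NFIB-cKO and 4.33 and 1.93 TPM in NFIX-cKO, and was listed at 0 in all NFIB/X-dKO and WT libraries. Gm22933 on chromosome 16 was listed at 0 in all single-knockout libraries and stood at 3.55 and 0.92 TPM in NFIB/X-dKO and 3.48 and 0.86 TPM in WT. Both rested on very few reads. The expected counts of Mir6935 were 1.21 in NFIB-cKO 85 and 2.4 and 1.2 in NFIX-cKO, and those of Gm22933 were 3.08 and 0.85 in NFIB/X-dKO.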
